A study of Homo sapiens with 4 samples.

Results

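The BCL2 family decides at the mitochondrial outer membrane whether a cell enters apoptosis. The 10 genes described here were MCL1, BCL2L1 and BCL2, which encode pro-survival proteins, BAK1, which encodes a pore-forming effector, and BCL2L11, BID, BAD, PMAIP1, BMF and BIK, which encode BH3-only proteins. They were read from every probeset, a small group of probes against a gene, whose single gene symbol in the platform annotation was one of these names. That gave 81 of the 218927 named probesets and 10 of the 18640 genes measured. No member probeset was lost to a placeholder value.

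RNA came from embryoid bodies, balls of cells formed when human embryonic stem cells are grown in suspension and begin to differentiate, made from the established line BG01V, a line with a variant karyotype. One group received TBBD at 10 µM for 48 h, generally from day 2 to day 4 of embryoid body formation, and the other received the vehicle DMSO. The series title names TBBD as a compound that blocks methylation of histone H3 at arginine 17, a mark placed by the methyltransferase CARM1. Each group held 2 arrays, numbered replicate 1 and replicate 2 in the labels. The labels do not say what a number stands for or whether the replicates were separate cultures. The p-values therefore cover the spread between these 4 samples, which may be technical.

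Pro-survival proteins hold the effectors and the BH3-only activators in a groove on their surface. BH3-only proteins occupy that groove or switch the effectors on, and the effectors then open the membrane and release cytochrome c. Human embryonic stem cells are known to be close to this threshold and to die readily after damage. Many of these proteins are controlled by phosphorylation, cleavage or rapid degradation, none of which an RNA array reads.

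The values are signals on a log2 scale, averaged over the probesets of a gene. Array medians over all probesets lay between 6.39 and 6.42. As a guide to the signal of genes not expected in these cells, 348 olfactory receptor genes had a median level of 5.40, with a 5th percentile of 5.18 and a 95th percentile of 5.66. Pluripotency markers lay above that 95th percentile for 9 of 9 measured genes and germ layer markers for 14 of 16. Blood cell markers did so for 1 of 5, CD3E, with levels between 5.22 and 5.79. Probes differ in affinity, so the level of a gene is not set against that of another gene here, and in RNA from whole embryoid bodies fewer cells of a type and less RNA per cell cannot be told apart.

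None of the 10 genes differed between TBBD and DMSO by the test used. With limma's moderated test 0 of 10 members reached an adjusted p under 0.05, and the background was the same, with 0.00% of the 18640 genes called. At an unadjusted p under 0.05 there were also 0 of 10 members, where 0.746% of all genes (139) passed. The smallest unadjusted p of a member was 0.35 in limma, for BAD, and every member had an adjusted p of 1. An exact permutation test of 2 arrays against 2 cannot give a two-sided p below 0.333, so no such test could pass for a single gene.

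In the fit 7 members lay higher with TBBD and 3 lower, beside 48.8% of all genes higher. The median log2 difference over the 10 members was 0.021, and over all genes it was -0.0035. The median size of the difference, without its sign, was 0.060 for the members and 0.075 for all genes. The TBBD and DMSO arrays did not overlap for 1 of the 10 members, beside 20.9% of all genes.

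**Figure D1:**
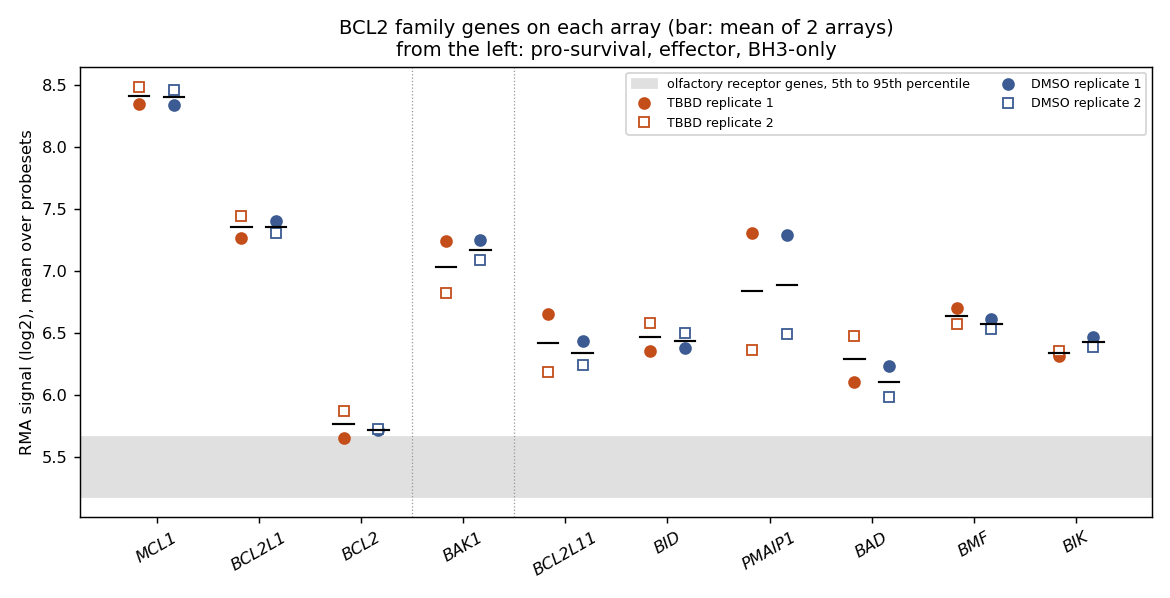
Level of each BCL2 family gene (log2 signal, mean over its probesets) on the 2 TBBD arrays and the 2 DMSO arrays, with circles for replicate 1, squares for replicate 2, and bars for the group means. The grey band runs from 5.18 to 5.66, the 5th to 95th percentile of olfactory receptor genes, and the TBBD and DMSO means of each gene lie close together while the PMAIP1 arrays split by replicate number.

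MCL1 encodes a short-lived pro-survival protein on which many embryonic and blood cells depend. Its level was 8.35 and 8.48 on TBBD replicates 1 and 2, against 8.34 and 8.46 on DMSO replicates 1 and 2. The groups overlapped, and the arrays of a number lay closer together than the arrays of a treatment. The difference was 0.013 ± 0.12 (SE), with a 95% confidence interval from -0.30 to 0.33 on the log2 scale, which is 0.810-fold to 1.26-fold.

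BCL2L1, whose main product BCL-XL protects the mitochondria, had a level of 7.27 and 7.45 on the TBBD arrays, against 7.41 and 7.30 on the DMSO arrays. Its TBBD arrays lay on either side of the DMSO arrays. The difference was 0.0036 ± 0.13 (SE), with an interval from -0.32 to 0.33.

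BCL2, the founding member of the family, stood at 5.65 and 5.87 on the TBBD arrays, against 5.72 and 5.72 on the DMSO arrays. Here too the TBBD arrays enclosed the DMSO arrays. The difference was 0.042 ± 0.13 (SE), with an interval from -0.29 to 0.38. This level is near the top of the olfactory receptor range, and 4 of the 9 BCL2 probesets lay below the 95th percentile of that range, so whether BCL2 was expressed is uncertain.

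BAK1, which like its relative BAX encodes a pore-forming effector, had 7.24 and 6.82 on the TBBD arrays, against 7.25 and 7.08 on the DMSO arrays. The lowest of the 4 values was TBBD replicate 2, and the groups overlapped. The difference was -0.13 ± 0.18 (SE), with an interval from -0.60 to 0.33. All 5 BAK1 probesets were lower with TBBD in replicate 2, by between -0.50 and -0.072, whereas in replicate 1 they ran from -0.43 to 0.37, with 2 of 5 higher.

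Among the BH3-only genes, BCL2L11 encodes BIM, which binds every pro-survival protein of the family and can activate the effectors. It had 6.65 and 6.18 on the TBBD arrays, against 6.43 and 6.24 on the DMSO arrays. The TBBD arrays held both the highest and the lowest value. The difference was 0.083 ± 0.19 (SE), with an interval from -0.42 to 0.58.

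BID links death receptors to mitochondria once caspase 8 has cut it. Its level was 6.35 and 6.58 on the TBBD arrays, against 6.37 and 6.50 on the DMSO arrays, so the TBBD arrays enclosed the DMSO arrays. The difference was 0.029 ± 0.14 (SE), with an interval from -0.32 to 0.38.

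BAD is a BH3-only protein that survival kinases silence by phosphorylation. It had 6.11 and 6.48 on the TBBD arrays, against 6.23 and 5.98 on the DMSO arrays. The highest value was TBBD replicate 2 and the lowest was DMSO replicate 2. The difference, 0.18 ± 0.18 (SE) with an interval from -0.27 to 0.64, was the largest of the 10 in size. It came from replicate 2, where TBBD minus DMSO was 0.49, while in replicate 1 it was -0.12. Both values leaned on the second dimmest of the 5 BAD probesets, which gave -0.94 in replicate 1 and 1.25 in replicate 2. In replicate 1, 3 of the 5 probesets were higher with TBBD although the gene value was negative. The fit on probeset medians gave a BAD difference of -0.040.

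PMAIP1 encodes NOXA, which binds MCL1 and is induced by p53 and by the integrated stress response. It had 7.31 and 6.36 on the TBBD arrays, against 7.29 and 6.49 on the DMSO arrays. The replicate 2 array was far below the replicate 1 array in each treatment. The difference was -0.053 ± 0.41 (SE), with an interval from -1.10 to 0.99, the widest of the 10. This fit counts the gap between the replicate numbers as spread. With the replicate number as a second term the PMAIP1 interval ran from -0.33 to 0.22.

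BMF, which couples to the myosin motor and responds to loss of attachment, had 6.70 and 6.57 on the TBBD arrays, against 6.61 and 6.53 on the DMSO arrays. The groups overlapped, and the difference was 0.067 ± 0.12 (SE), with an interval from -0.24 to 0.37. BIK, a BH3-only protein of the endoplasmic reticulum, had 6.32 and 6.35 on the TBBD arrays, against 6.47 and 6.39 on the DMSO arrays. BIK was the member whose groups did not overlap, both TBBD arrays lying below both DMSO arrays. Its difference was -0.094 ± 0.11 (SE), with an interval from -0.38 to 0.20, and BIK was not called.

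By role, the 3 pro-survival genes had a median difference of 0.013, with 3 higher and 0 lower. The 6 BH3-only genes had a median of 0.048, with 4 higher and 2 lower, beside 48.8% of all genes higher. Each of the 3 pro-survival differences was small beside its SE. With the median over probesets BCL2L1 turned to -0.077 and MCL1 to -0.071. The half-width of the 95% confidence interval ran from 0.29 for BIK to 1.05 for PMAIP1, beside a median of 0.36 over all genes. In this fit, whose spread also holds the difference between the replicate numbers, smaller differences were not detectable for the members. The half-widths belong to unadjusted intervals of single genes, so they are not the limit of detection. The adjusted threshold asks for larger differences still. The intervals do not show that the 2 treatments act alike.

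Within each replicate number, TBBD minus DMSO was positive in both numbers for 2 members. MCL1 gave 0.0064 in replicate 1 and 0.021 in replicate 2, and BMF gave 0.088 in replicate 1 and 0.045 in replicate 2. For 2 members it was negative in both numbers. BAK1 gave -0.0044 in replicate 1 and -0.26 in replicate 2, and BIK gave -0.15 in replicate 1 and -0.035 in replicate 2. These 4 of 10 members with 1 sign are beside 44.5% of all genes.

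The other 6 members had opposite signs. In replicate 1, TBBD minus DMSO was -0.068 for BCL2, -0.14 for BCL2L1, -0.022 for BID and -0.12 for BAD. In replicate 2 it was 0.15 for BCL2, 0.14 for BCL2L1, 0.080 for BID and 0.49 for BAD. BCL2L11 and PMAIP1 ran the other way, at 0.22 and 0.017 in replicate 1 and at -0.056 and -0.12 in replicate 2. With 1 array a treatment these differences carry no test. The members' median was -0.013 in replicate 1 and 0.033 in replicate 2, and over all genes it was -0.021 and 0.012. The replicate 1 median turned to 0.0063 with quantile normalization again and to 0.0017 with median centring, and the replicate 2 median turned to -0.035 with the median over probesets.

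**Figure D2:**
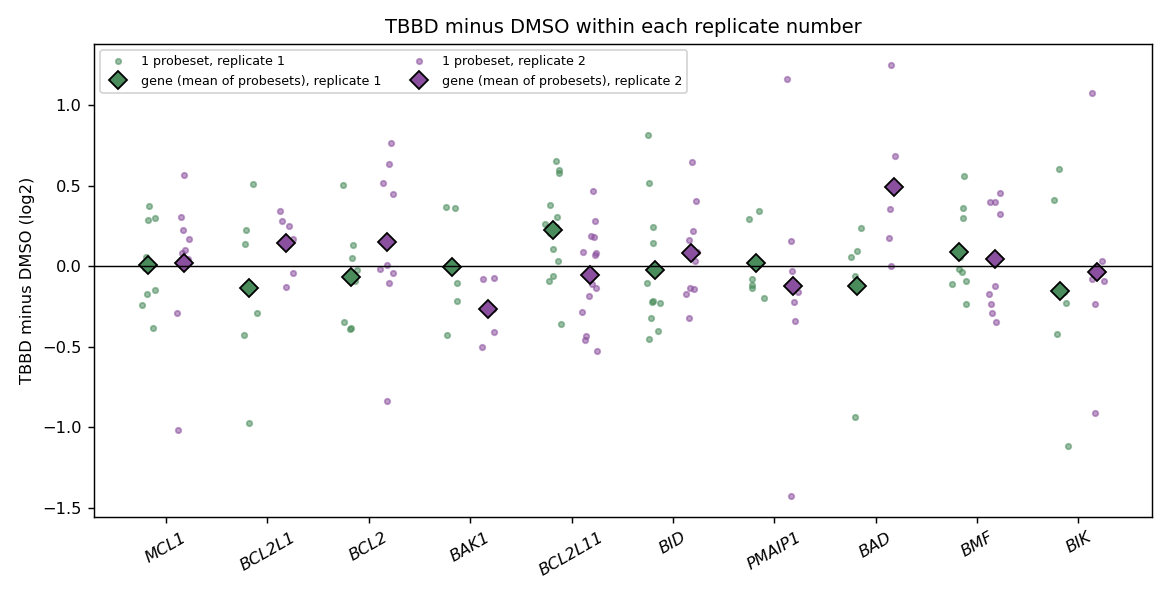
TBBD minus DMSO (log2) within replicate 1 and within replicate 2 for each BCL2 family gene, where dots are single probesets and diamonds are the mean over the probesets of the gene. Probesets of a gene scatter on both sides of 0, and the largest gene-level difference is 0.49 for BAD in replicate 2.

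The probesets of a gene read the same 4 RNA samples and are not replicates. Of the 81 member probesets, 18 were higher with TBBD in both numbers, 18 were lower in both and 45 had opposite signs, so 44.4% had 1 sign, beside 47.3% of all named probesets. In limma on single probesets 0 of 81 reached an adjusted p under 0.05, as did 0.00% of all named probesets, and 0 of 81 had an unadjusted p under 0.05, where 2.55% of all did.

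Levels differed widely between probesets of 1 gene. Their SD was 1.83 for BIK, 1.79 for MCL1 and 1.47 for PMAIP1, and 0.68 for BCL2 and 0.69 for BCL2L11, beside a median of 0.87 over genes with at least 3 probesets. MCL1 probesets ran from a mean level of 5.00 to 10.89, and BIK probesets from 4.73 to 9.43. Of the 6 BIK probesets, 4 lay below the 95th percentile of the olfactory receptor genes, so the BIK mean rests in large part on probesets near that range.

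Some probesets differed between the arrays of a treatment. The second brightest of the 9 MCL1 probesets had 9.71 and 9.46 on the TBBD arrays, against 9.66 and 10.48 on the DMSO arrays, DMSO replicate 2 being the highest. The brightest MCL1 probeset had 11.14 and 10.81 on the TBBD arrays, against 10.84 and 10.76 on the DMSO arrays. There TBBD replicate 1 was the highest and DMSO replicate 2 the lowest. The second dimmest of the 5 BAD probesets had 5.58 and 5.97 on the TBBD arrays, against 6.52 and 4.73 on the DMSO arrays, and 2 further probesets that the annotation gives to BAD and GPR137 together were left out.

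TBBD minus DMSO of each probeset was also averaged over both replicate numbers, where opposite differences cancel. The SD of these averages within a gene was largest for PMAIP1, at 0.37 over 7 probesets, and smallest for BIK and BAD, at 0.12 each. The median SD over genes with at least 3 probesets was 0.25. Within replicate 1 the probesets ran from -1.12 to 0.61 for BIK, -0.94 to 0.24 for BAD and -0.20 to 0.34 for PMAIP1. Within replicate 2 they ran from -0.91 to 1.07 for BIK, -0.0015 to 1.25 for BAD and -1.42 to 1.16 for PMAIP1. A small SD of the averages therefore does not mean that the probesets gave like differences within a number. All 5 BAD probesets had a positive mean difference, between 0.045 and 0.37, but only 2 of the 5 were higher with TBBD in both numbers.

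When the number was fitted together with the treatment, 5 members lay higher and 5 lower on replicate 2, with a median of 0.0068, and PMAIP1 was the 1 member of 10 that passed. PMAIP1 averaged 6.43 ± 0.087 (SD, n = 2) on the replicate 2 arrays and 7.30 ± 0.012 (SD, n = 2) on the replicate 1 arrays. Each SD is over 1 TBBD and 1 DMSO array, so it also holds the treatment difference within that number. The log2 difference was -0.87 ± 0.12 (SE) with an adjusted p of 0.0131 in limma. This is 1.83-fold lower on replicate 2, with a 95% confidence interval from 1.51-fold to 2.22-fold. The difference was -0.94 between the TBBD arrays and -0.80 between the DMSO arrays. With 1 array in each combination, whether these 2 values differ was not tested. For the same reason the spread behind the p-value is not one between repeated arrays of a treatment and number.

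The call of PMAIP1 is 1 of 10 members, where 3.50% of all genes were called for the number and 1.21% were called and lower on replicate 2. A lower number difference than that of PMAIP1 was found for 84 genes, or 0.451% of all genes. At an unadjusted p under 0.05 in limma there were 2 members, PMAIP1 and BCL2L11, where 18.2% of all genes passed. Arrays of the 2 numbers did not overlap for 7 of 10 members, beside 51.0% of all genes.

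**Figure D3:**
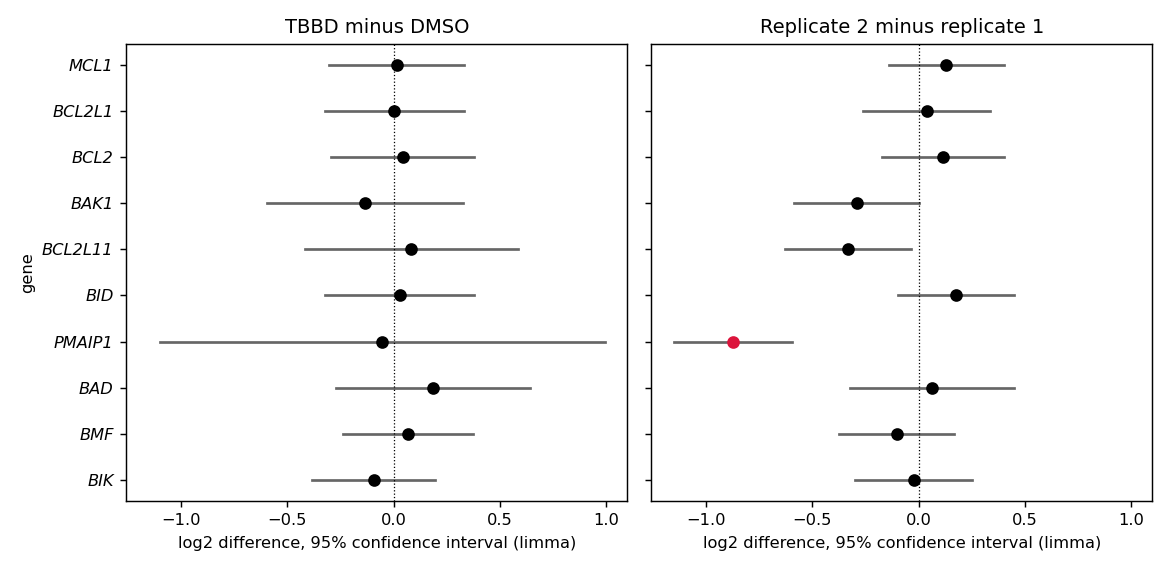
Log2 difference of each BCL2 family gene with its 95% confidence interval from limma, for TBBD minus DMSO on the left and replicate 2 minus replicate 1 on the right. All 10 intervals for the treatment cover 0, and PMAIP1, in red, lies at -0.87 for the replicate number with an adjusted p under the threshold.

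BCL2L11 averaged 6.21 on replicate 2 and 6.54 on replicate 1, a difference of -0.33 ± 0.13 (SE) with an adjusted p of 0.225 in limma, and it did not pass. For 11 of its 14 probesets the value was lower on replicate 2 in both treatments, and for 0 of 14 it was higher in both. BAK1 averaged 6.95 on replicate 2 and 7.24 on replicate 1, a difference of -0.29 ± 0.12 (SE) with an adjusted p of 0.279 in limma. BID averaged 6.54 on replicate 2 and 6.36 on replicate 1, a difference of 0.18 ± 0.12 (SE) with an adjusted p of 0.500 in limma. The other 6 members lay between -0.10 for BMF and 0.13 for MCL1, and none of them passed.

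PMAIP1 was carried by most of its probesets. The brightest had 8.64 and 8.80 on TBBD and DMSO replicate 2, against 10.30 and 9.95 on TBBD and DMSO replicate 1. The next brightest had 7.43 and 7.65 on replicate 2, against 8.53 and 8.51 on replicate 1. In both treatments 6 of the 7 probesets were lower on replicate 2. The dimmest was the exception, with 5.61 and 4.45 on TBBD and DMSO replicate 2, against 5.08 and 5.28 on replicate 1, levels within or below the olfactory receptor range. No single probeset of a member passed for the number, 0 of 81 reaching an adjusted p under 0.05 in limma, beside 0.0676% of all named probesets, and 11 of 81 had an unadjusted p under 0.05, beside 11.8% of them.

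**Figure D4:**
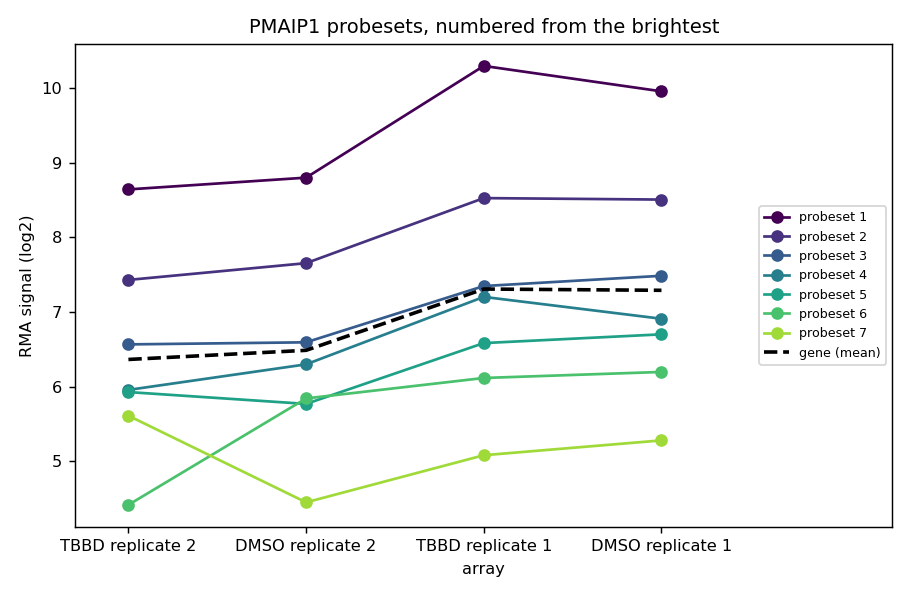
Log2 signal of the 7 PMAIP1 probesets on the 4 arrays, numbered from the brightest, with the gene mean as a dashed line. The gene mean is 6.36 and 6.49 on TBBD and DMSO replicate 2 and 7.31 and 7.29 on TBBD and DMSO replicate 1, and lines join the arrays only to follow a probeset.

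Markers of stem cells and of differentiated lineages also differed by number. Of 9 measured pluripotency markers, 8 were lower and 1 higher on replicate 2, with a median of -0.62, and 5 had an adjusted p under 0.05 in limma. POU5F1, DNMT3B, SALL4 and ZFP42 were lower on replicate 2, and SOX2 was higher. Their summed linear signal was 3355 and 3791 on TBBD and DMSO replicate 2, against 4674 and 4808 on TBBD and DMSO replicate 1. Of 16 germ layer markers, 10 were higher and 6 lower, with a median of 0.18, and the 4 that passed were AFP, COL1A1, COL3A1 and PDGFRB, all higher. These counts of called markers are beside 3.50% of all genes called for the number.

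The summed signal of the germ layer markers was 5523 and 5083 on TBBD and DMSO replicate 2, against 2664 and 3177 on TBBD and DMSO replicate 1. COL1A1 and COL3A1, the brightest of the list on replicate 2, weigh most in that sum, which does not stand for the list as a set. They had 10.79 and 10.65 on TBBD replicate 2, against 9.20 and 8.34 on TBBD replicate 1. While 10 markers were higher on replicate 2, 6 were lower, none of them called. Among these 6 were MIXL1 at -1.09, measured on 2 probesets, TBXT at -0.80 and EOMES at -0.62. Blood cell markers summed to 229 and 233 on replicate 2, against 211 and 228 on replicate 1, and 0 of 5 passed. No marker of the 3 lists was listed at 0, which says nothing on detection since probesets with a placeholder value were left out. The part of these markers in the PMAIP1 difference was not tested.

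The promoters of PMAIP1 and BCL2L11 are shown because these 2 members had the lowest values on replicate 2 relative to replicate 1, PMAIP1 alone passing the test. Each window runs from 250 bases before to 50 bases after the start of the gene in RefSeq on GRCh38.p14, on the forward strand, at chr18:59899746-59900045 for PMAIP1 and chr2:111120664-111120963 for BCL2L11. Of the 10 members 8 had an entry in the promoter table, 4 of them with a single window.

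PMAIP1: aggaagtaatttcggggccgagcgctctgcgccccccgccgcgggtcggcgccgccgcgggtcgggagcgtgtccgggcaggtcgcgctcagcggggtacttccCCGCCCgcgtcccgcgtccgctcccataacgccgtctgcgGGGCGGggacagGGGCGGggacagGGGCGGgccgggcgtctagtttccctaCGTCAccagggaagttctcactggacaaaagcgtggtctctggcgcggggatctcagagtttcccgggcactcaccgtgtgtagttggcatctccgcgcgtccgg
BCL2L11: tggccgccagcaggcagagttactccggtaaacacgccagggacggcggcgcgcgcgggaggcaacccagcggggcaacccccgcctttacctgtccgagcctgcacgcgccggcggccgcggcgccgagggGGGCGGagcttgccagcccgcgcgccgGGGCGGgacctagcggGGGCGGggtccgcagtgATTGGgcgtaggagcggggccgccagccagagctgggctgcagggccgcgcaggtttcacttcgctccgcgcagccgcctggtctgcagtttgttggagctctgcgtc

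Capitals mark letters that match CGTCA, the half-site of the cyclic AMP response element, CCAAT, the CCAAT box, GGGCGG, the GC box, or TATAAA, the TATA box, on either strand. None of the matches in these windows overlap. The PMAIP1 window held GGGCGG 4 times, 3 of them on the forward strand, and CGTCA once, beginning 55 bases before the start. The BCL2L11 window held GGGCGG 3 times on the forward strand and CCAAT once on the reverse strand, 58 bases before the start. Among 35116 windows of this length in the table, 45.0% held GGGCGG, 34.6% CCAAT, 24.6% CGTCA and 11.5% TATAAA. GC content was 71.3% for PMAIP1 and 74.7% for BCL2L11. The arrays read RNA and give no value for these windows.

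Other genes of the death pathways gave no call for TBBD either. Among 13 further BCL2 family genes 0 were called, with 7 higher, 6 lower and a median difference of 0.032. BCL2A1, a pro-survival gene driven by NF-kB in blood cells, had 5.80 and 5.82 on the TBBD arrays, against 5.59 and 5.57 on the DMSO arrays. Its groups did not overlap, and the difference was 0.23 ± 0.11 (SE), at levels near the olfactory receptor range. BCL2L2, which encodes the pro-survival protein BCL-W, was at the other end with -0.16 ± 0.13 (SE).

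In the number fit HRK, a BH3-only gene of neurons measured on 2 probesets, passed beside PMAIP1. It had 6.99 and 7.13 on TBBD and DMSO replicate 2, against 7.90 and 7.69 on TBBD and DMSO replicate 1, a difference of -0.73 ± 0.13 (SE) with an adjusted p of 0.0349 in limma. HRK is 1 of 13 further family genes, beside 3.50% of all genes called for the number. No other gene of the 4 further lists passed for the number.

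Of 16 measured caspase and apoptosome genes 0 were called for TBBD, with 6 higher, 10 lower and a median of -0.013. XIAP, an inhibitor of caspases, stood at 0.19 ± 0.14 (SE) and CASP6, an executioner caspase, at -0.15 ± 0.13. Of 12 death receptor genes 0 were called, with 7 higher, 5 lower and a median of 0.019. TRADD, an adaptor of tumour necrosis factor receptors, stood at 0.16 ± 0.16 and the decoy receptor gene TNFRSF10C at -0.12 ± 0.13.

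Of 19 genes for binding partners and regulators of the member proteins 0 were called, with 9 higher, 10 lower and a median of -0.0074. DYNLL2, a dynein light chain that holds BMF, stood at 0.13 ± 0.13 (SE) and BECN1, an autophagy protein bound by BCL2, at -0.23 ± 0.12. At an unadjusted p under 0.05 in limma there were 0 genes in each of these 4 lists. The 4 medians ran from -0.013 to 0.032, beside -0.0035 over all genes.

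**Figure D5:**
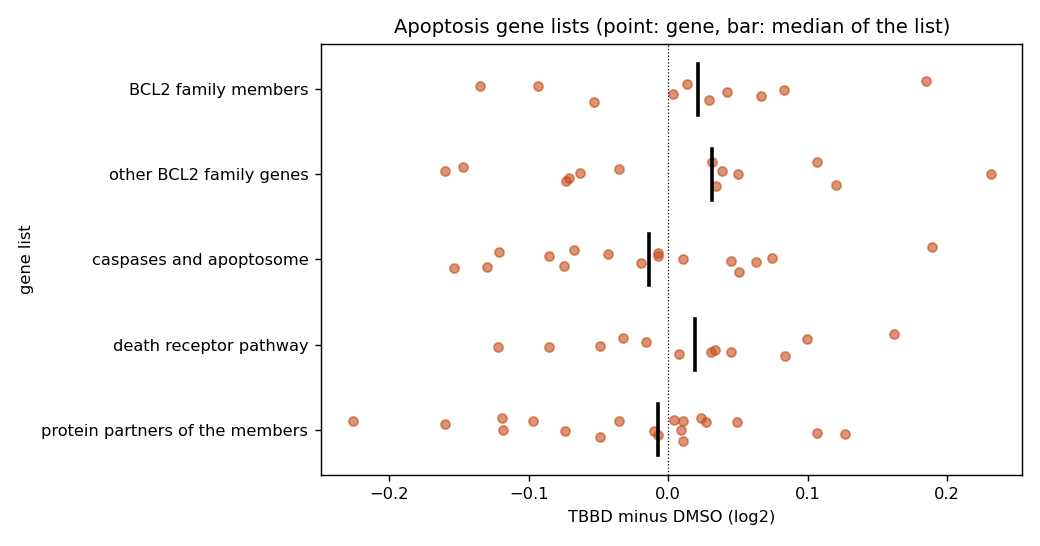
TBBD minus DMSO (log2) of the 10 BCL2 family members and of 4 further lists of apoptosis genes, with a point for each gene and a bar at the median of the list. The medians lie between -0.013 and 0.032, and no gene of any list passed the test.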

How the data were processed

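Each of 4 arrays (2 TBBD, 2 DMSO) gave 1 value per probeset. Per the submitters' processing notes, the authors used RMA. Version and settings: not given in the sources used here. Deposited values are on a log2 scale, as read from maxima of 13.7 to 13.8. Of 247312 probesets, 277 held a placeholder value and were left out. Probesets with 1 gene symbol were averaged per gene, after 2528 of 18683 symbols were updated through a RefSeq gene table. No detection call was used, and the number of arrays limits the precision.

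Treatment was tested with limma 3.58.1 in R 4.3.3 on the log2 values with the treatment as the only term, and the replicate number in a fit with both terms. Two-sided p-values were adjusted by Benjamini-Hochberg across the whole gene table, with 0.05 as the threshold. The fit was tested on simulated data in which the arrays varied independently. In the real arrays same-number deviations were correlated, so that run is no support for the results. The members, gene lists and tests were chosen with earlier results of these data known. All members are named, and of each further list the genes with the largest positive and negative treatment difference on at least 3 probesets and any gene past the threshold. Markers were named for the cell type check, and those past the threshold for the number after their values were seen. Figures used Python 3.11.15 and matplotlib 3.10.9.

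Alternatives covered normalization, centring, probeset summary, dim probesets and genes, variance priors, a replicate block, single probesets and each array left out. Placeholder cells at 0, and single probesets and left-out arrays for the replicate number, were added after seeing the data.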

Additional observations from a re-analysis of the deposited data

How the results depend on the processing

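No member, and no gene, passed the adjusted threshold for TBBD under any alternative run, single probesets included, and 0 members had an unadjusted p under 0.05 in limma. The count of all genes at an unadjusted p under 0.05, 139, became 249 with the median over probesets, 90 with at least 3 probesets, 47 for the brightest 12426 genes, 23 for the brightest 9320 genes, 225 with an intensity trend, 496 with the replicate block and 5589 for single probesets, and ran from 137 to 320 with 1 array left out. Deviations of same-number arrays from the group means correlated at 0.566 across genes, but with 2 numbers the labels alone do not pair the arrays. The replicate block changed no call. It narrowed the half-width of the treatment interval from 1.05 to 0.28 for PMAIP1, from 0.50 to 0.30 for BCL2L11 and from 0.46 to 0.29 for BAK1, and the 10 half-widths then ran from 0.27 to 0.38.

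With the median over probesets the member median became -0.046 and its replicate 2 value -0.035 (-0.0055 without dim probesets). The median of the further family list became -0.041, that of the caspase and apoptosome list 0.029 and that of the death receptor list 0.045. The median over probesets also turned the treatment difference to -0.077 for BCL2L1, -0.071 for MCL1 (-0.023 without dim probesets), -0.053 for BID and -0.040 for BAD. It turned the number difference to -0.017 for BCL2, -0.083 for BCL2L1, -0.024 for MCL1, -0.031 for BAD and 0.0067 for BIK. Without a turn, it gave a treatment difference of 0.20 for BMF, -0.26 for BIK and 0.18 for BCL2, and a number difference of -0.15 for BAK1. The replicate 1 member median turned to 0.0063 with quantile normalization again and 0.0017 with median centring, and 3 rather than 4 members had 1 sign in both numbers with these settings, with the median over probesets and without dim probesets. The cause was not tested.

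Leaving out 1 array makes treatment and number unequal and assumes that the lone array varies like the others. The member median then ran from -0.028 to 0.047. Treatment differences ran from -0.070 to 0.16 for BCL2, -0.085 to 0.092 for BCL2L1, -0.055 to 0.082 for MCL1, -0.35 to 0.076 for BAK1, -0.15 to 0.32 for BCL2L11, -0.084 to 0.14 for BID, -5.4e-05 to 0.37 for BAD and -0.52 to 0.42 for PMAIP1. BMF ran from 0.0045 to 0.13 and BIK from -0.13 to -0.052.

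PMAIP1 passed for the number under all 11 alternatives run on genes (adjusted p in limma from 0.00476 to 0.0315), but 0 member probesets passed singly. The fits for the number with 1 array left out held the number as the only term, without the treatment. In them the PMAIP1 difference ran from -0.93 to -0.81. Number differences with 1 array left out ran from -0.035 to 0.11 for BCL2L1, -0.18 to 0.31 for BAD, -0.10 to 0.053 for BIK, -0.42 to -0.16 for BAK1 (the smallest without TBBD replicate 2), 0.039 to 0.19 for BCL2, -0.44 to -0.22 for BCL2L11 and -0.15 to -0.059 for BMF. The 653 genes called for the number became 1001 with the number as the only term, and ran from 368 to 685 with 1 array left out, the lowest without TBBD replicate 2.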
